A study of Saccharomyces cerevisiae with 12 samples.

Results

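The change of the strain difference between 48 h and 96 h was examined for 2 yeasts fermenting the same medium. Total RNA of Saccharomyces cerevisiae ITD00185, which by the title of the series is the strain from agave, and of T73, a commercial wine yeast, was sampled at both times while they fermented a synthetic must of agave at 28 ºC. Each of the 4 groups (ITD00185 at 48 h, T73 at 48 h, ITD00185 at 96 h, T73 at 96 h) had 3 arrays, labelled as biological replicates, and each strain stands for itself alone. All 12 arrays had 2 colours, with the strain in Cy5 and a Cy3 sample mix of the array's own time point, whose makeup the labels do not give. The values are log2 ratios of the strain to that mix; log base and direction are likely but not stated, and every signed value rests on them. The difference between strains is ITD00185 minus T73, and its change is the difference at 96 h minus that at 48 h. Genes with at least 2 values in each group entered the test, 5474 of the 6214 genes on the array. A gene was counted as a sign-change gene when its difference had opposite signs at the 2 times and the change passed the test, in one direction, both on the values as deposited and after every array had been brought to one median and one spread (called scaled below). These conditions were met by 767 genes, and 671 of them had a value on every array.

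During a fermentation yeast cells pass from growth to a stationary phase in which sugar and nitrogen run low and ethanol accumulates. Growing cells spend most of their transcription on ribosomes and on biosynthetic enzymes, and chaperones, the proteasome and storage carbohydrates are known from cells under stress or leaving growth. A gene whose strain difference turns around between early and late samples is one for which the choice of time decides which strain appears higher. In bulk cultures such as these, fewer cells in a given state and less RNA per cell cannot be told apart.

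The arrays differed in spread, and that spread moved with the comparison. The standard deviation over probes was 1.80 to 2.08 on the T73 arrays of 48 h and 1.14 to 1.31 on those of 96 h, whereas it was 1.03 to 1.52 for ITD00185 at 48 h and 1.48 to 1.71 at 96 h. The change of the difference correlated across genes with the profile that all arrays shared, with r = 0.553 on deposited values and 0.091 on scaled values. After that profile had been regressed out of each array r was 0.006, which is near 0 by construction. Each r is a correlation across genes, which are not independent replicates. ITD00185 48 h replicate 2 stood apart, with r of 0.421 and 0.511 across genes to the other arrays of its group whereas r with the 3 arrays of ITD00185 at 96 h was 0.822 to 0.858. The labels place it at 48 h, and whether that time is right cannot be settled from the values; every ITD00185 mean at 48 h and every change rests on it. Its values lay near those of 96 h for many of the genes described here, and values without it are given where they matter. The part that spread and this array play in the results was not tested beyond these alternatives. The strains themselves were told apart in the same direction at both times: the ratio of IRC9 was 4.25, 4.45 and 4.67 in ITD00185 at 48 h and -1.93, -1.60 and -1.95 in T73, and 4.34, 5.33 and 4.47 against -2.28, -2.27 and -2.08 at 96 h.

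Of the 5474 genes, 2080 passed the test of the change on deposited values. The change was towards ITD00185 for 1333 of them (24.4% of the genes tested) and towards T73 for 747 (13.6%). On scaled values 1215 genes passed, 734 towards ITD00185 (13.4%) and 481 towards T73 (8.79%). Both value sets called 925 genes in the same direction and 0 in opposite directions. The median change over all genes was 0.20 as deposited and -0.05 on scaled values.

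The difference itself had opposite signs at the 2 times for 2320 genes on both value sets, and 1553 of these did not pass the test of the change. The 767 that did fell into unequal directions. T73 was higher at 48 h and ITD00185 at 96 h for 567 genes (10.4% of those tested), with a median difference of -1.94 at 48 h and 1.52 at 96 h. The opposite turn, from ITD00185 to T73, was made by 200 genes (3.65%), whose medians were 0.91 and -0.82. Among the members with all 12 values, the arrays of the 2 strains did not overlap at either time, and in opposite order, for 321 of 671, against 508 of all 4807 genes with complete values (10.6%). The members were chosen on the same differences, so that share is a description. With the shared profile removed 721 of the 767 still passed the test in the same direction, and without ITD00185 48 h replicate 2 the same rule on both value sets kept 755 of them. On deposited values alone, 609 members passed the test of the change in each of the 12 fits that left out 1 array. Of these, 504 went towards ITD00185 and 105 towards T73. The number of sign-change genes itself ran from 356 without T73 96 h replicate 1 to 1613 without ITD00185 48 h replicate 2.

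**Figure D1:**
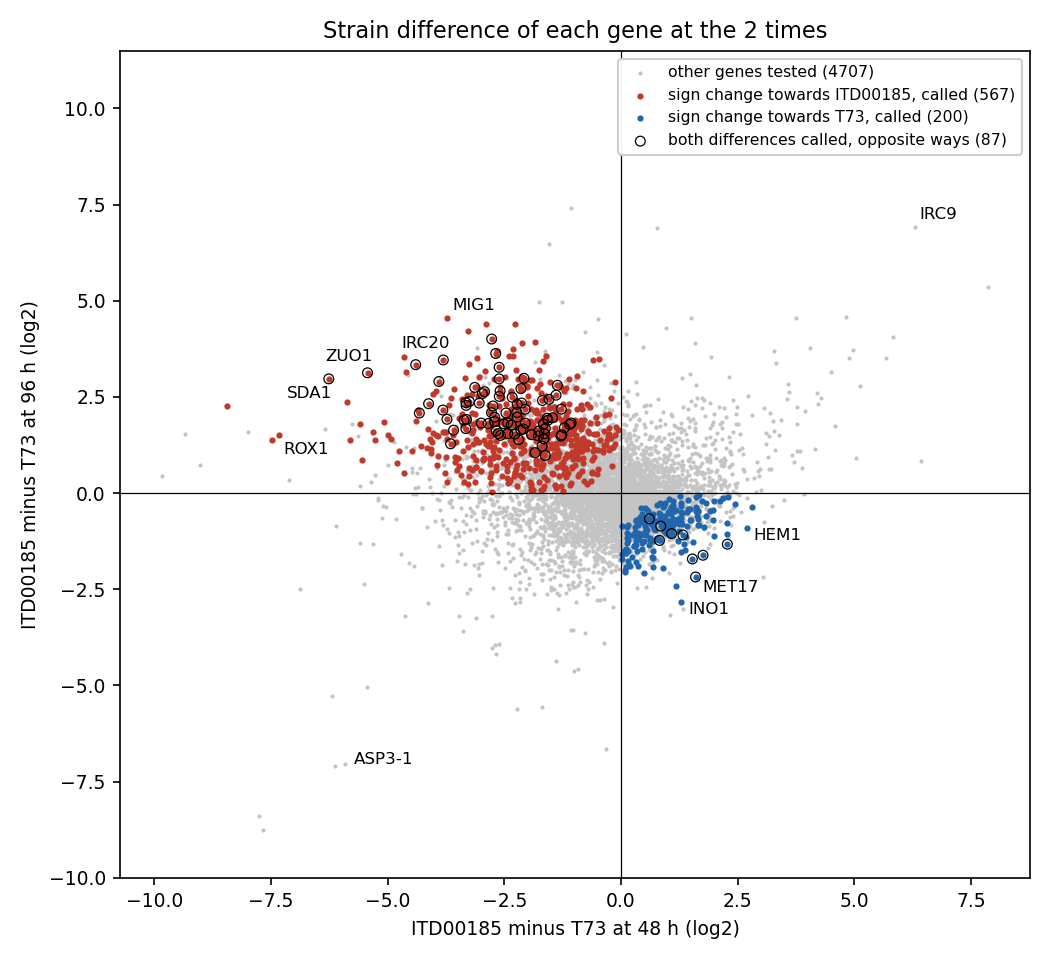
Difference ITD00185 minus T73 at 48 h (x axis) and at 96 h (y axis), both log2 and as deposited, for the 5474 genes tested; each point is 1 gene. The 567 red genes lie upper left and reach further from 0 than the 200 blue genes lower right, and the 87 circled genes passed the test of the strain difference at each time in opposite directions.

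The strictest form of a sign change, a strain difference past its own test at each time and in opposite directions on both value sets, was found for 87 genes. It ran towards ITD00185 for 78 genes (1.42% of those tested) and towards T73 for 9 (0.164%). All 87 kept their call of the change with the shared profile removed and without ITD00185 48 h replicate 2. On deposited values they also kept it in each of the 12 fits without 1 array. The pair of opposite strain calls was less stable: its count ran from 19 without T73 96 h replicate 1 to 397 without ITD00185 48 h replicate 2. On deposited values alone, the strain difference passed its test at both times for 233 of the 767 members. It passed at 48 h alone for 314, at 96 h alone for 150 and at neither time for 70. For most members the turn therefore rests on the test of the change.

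Sign-change genes were taken as stable with complete values, none beyond 10 in size, and a call in every fit without 1 array as deposited. Among them the largest deposited change was that of SDA1, needed for the assembly and export of the large ribosomal subunit. Its ratio to the mix was -0.50, 2.38 and -0.10 in ITD00185 and 8.43, 5.99 and 6.14 in T73 at 48 h, and 1.83, 3.58 and 3.11 against -0.40, 0.48 and -0.47 at 96 h. The strains did not overlap at either time, with T73 high at 48 h and ITD00185 high at 96 h. The difference moved from -6.26 to 2.97, a change of 9.23 ± 1.17 (SE of the fit; adjusted p = 0.00141), and of 6.96 on scaled values. IRC20, a putative helicase and ubiquitin ligase, showed the same turn with less scatter. Its ratios were -0.78, 0.16 and -0.86 in ITD00185 and 3.37, 3.70 and 2.86 in T73 at 48 h, and 2.80, 3.11 and 2.78 against -1.21, 0.63 and -1.11 at 96 h. Neither time showed an overlap, and the change was 7.27 ± 0.67 (adjusted p = 0.000525). RPH1, a histone demethylase that represses autophagy genes, differed by -2.68 at 48 h and 3.63 at 96 h, a change of 6.31 ± 0.92 that was 6.45 on scaled values.

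The repressors ROX1 and MIG1 were among the largest turns. ROX1, the heme-dependent repressor of hypoxic genes, read -1.60, -0.07 and -0.79 in ITD00185 against 7.90, 6.68 and 4.93 in T73 at 48 h, and 4.19, 4.23 and 4.14 against 2.40, 3.72 and 1.91 at 96 h. The strains were apart at both times, widely at 48 h and narrowly at 96 h, where the difference of 1.51 did not pass its own test (adjusted p = 0.131). The change was 8.84 ± 0.97 (adjusted p = 0.00126). MIG1, the repressor of glucose-repressed genes, read -1.0, 3.78 and -0.04 against 4.85, 4.84 and 4.20 at 48 h, and 3.71, 7.10 and 4.73 against 0.55, 1.02 and 0.31 at 96 h. ITD00185 48 h replicate 2 was the one array of its group near the T73 values, and no array crossed over. The change of MIG1 was 8.27 ± 1.54 and became 9.70 without that array. STD1, which acts in the glucose signal to the hexose transporter genes, changed by 6.51 ± 0.94. Of the 20 genes of hexose transport and sensing tested, STD1 was the one sign-change gene, and 5 others passed the test towards T73 on deposited values, while 0 did so on scaled values. The list of hypoxic genes, which also holds ROX1 itself, had 3 of 26 genes called towards ITD00185 and 5 towards T73 as deposited, and 4 and 1 on scaled values. Its median change was -0.51 as deposited and -0.23 scaled, and 2 of its genes were sign-change genes.

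**Figure D2:**
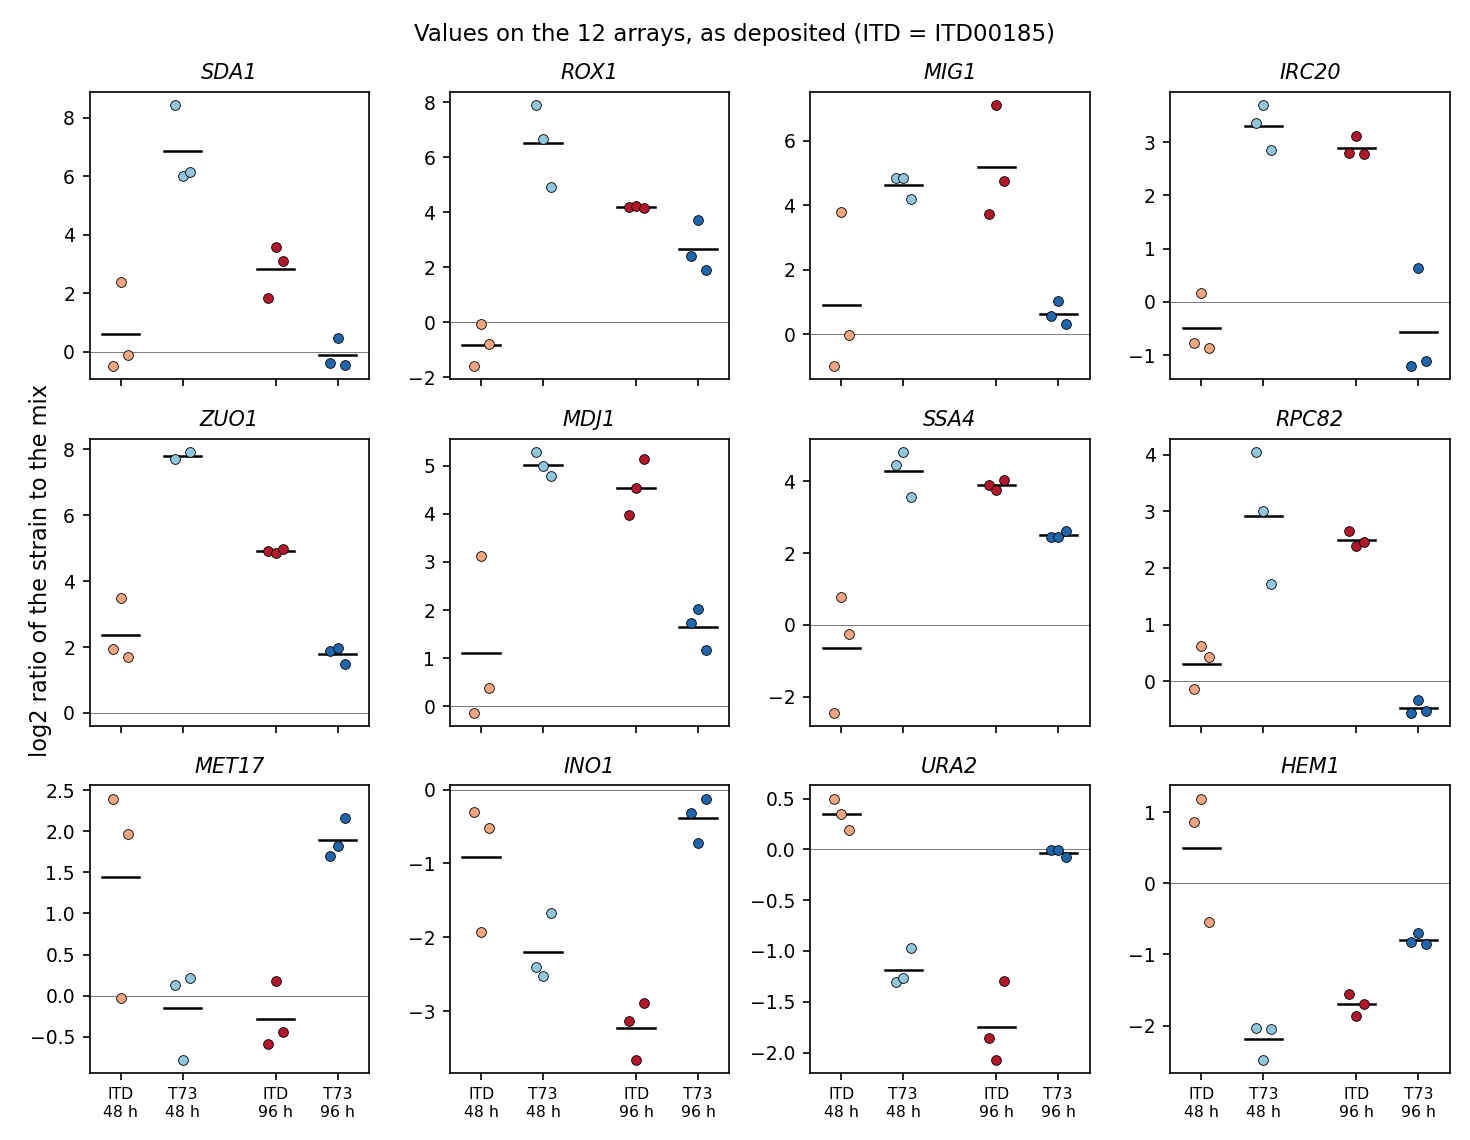
Log2 ratio of the strain to the mix (y axis, one scale per gene) on each of the 12 arrays for 12 sign-change genes, grouped by strain and time; points are arrays and bars are group means, and ZUO1 has 2 values in T73 at 48 h. In the 8 genes of the upper rows T73 is above ITD00185 at 48 h and below it at 96 h, and the lower row shows the opposite order.

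The list of heat shock proteins and chaperones had the largest positive median change of the 37 lists. Of 39 heat shock proteins and chaperones tested, 23 were called towards ITD00185 and 1 towards T73, and 16 were sign-change genes, all towards ITD00185. Over all genes, the shares to set beside each list are 24.4% called towards ITD00185 and 13.6% towards T73 as deposited. They are 13.4% and 8.79% on scaled values, and 10.4% and 3.65% for sign-change genes. The median difference over the list went from -1.36 at 48 h to 1.05 at 96 h, and the median change was 2.12 as deposited and 1.56 on scaled values. The median ratio of the list by array was -0.46, 0.77 and 0.17 in ITD00185 and 1.71, 2.16 and 1.69 in T73 at 48 h, and 0.83, 1.28 and 1.19 against 0.48, 0.49 and 0.60 at 96 h. The strains did not overlap at either time, and the shift between the times was wider in T73.

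ZUO1, a chaperone partner bound to ribosomes at the exit of the nascent chain, had 2 values in T73 at 48 h, 7.69 and 7.92, against 1.95, 3.49 and 1.69 in ITD00185. At 96 h the order was reversed, with 4.92, 4.84 and 4.96 in ITD00185 and 1.88, 1.98 and 1.49 in T73. The change was 8.56 ± 0.62 (adjusted p = 0.000373) as deposited and 5.11 on scaled values. MDJ1, the mitochondrial partner of the matrix chaperone system, read -0.14, 3.12 and 0.37 against 5.29, 4.99 and 4.78 at 48 h, and 3.97, 4.53 and 5.13 against 1.73, 2.03 and 1.17 at 96 h. The strains stayed apart at both times, and the change was 6.80 ± 0.97, or 4.41 scaled. SSA4, a stress-inducible cytosolic chaperone with close copies that a probe may not separate, read -2.45, 0.77 and -0.26 against 4.46, 4.82 and 3.56 at 48 h, and 3.90, 3.77 and 4.04 against 2.45, 2.44 and 2.62 at 96 h. Here ITD00185 rose against the mix by 4.55 (adjusted p = 0.00738), while the value of T73, -1.78, did not pass its test (adjusted p = 0.0538). The disaggregase HSP104 changed by 4.54 ± 0.76, the small heat shock protein HSP42 by 4.45 ± 0.64 and LHS1, a chaperone of the endoplasmic reticulum lumen, by 6.89 ± 1.08. On scaled values these were 3.26, 2.70 and 4.60. At 96 h the deposited strain difference passed its own test for ZUO1, MDJ1 and HSP104. It did not pass for SSA4 (1.40, adjusted p = 0.132), HSP42 (1.28, adjusted p = 0.0625) and LHS1 (1.58, adjusted p = 0.152). A separate list of the chaperonin that folds actin and tubulin, with its partner prefoldin, had 0 sign-change genes of 13 and a median change of 0.42 as deposited and -0.50 on scaled values.

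Transcription factors of the stress response gave mixed results. HSF1, the heat shock factor, changed by 4.22 ± 1.00 on deposited values (adjusted p = 0.0117) and missed the threshold on scaled values, at 3.12 (adjusted p = 0.0621). MSN2 had a change of -0.52 (adjusted p = 0.277) and MSN4 of 1.38 (adjusted p = 0.0561), both general stress activators. HSP26, a small heat shock protein with a difference of 0.25 at 48 h and 2.01 at 96 h, had a change of 1.76 (adjusted p = 0.0556) without a sign change on deposited values. On scaled values its difference went from -0.58 to 2.43, and the change of 3.01 passed (adjusted p = 0.0308). As deposited, 11 of 40 stationary phase and stress genes were called towards ITD00185 and 4 towards T73. These were near the shares of all genes (24.4% and 13.6%). On scaled values 10 were called towards ITD00185 and 0 towards T73, beside 13.4% and 8.79% of all genes. Sign-change genes towards ITD00185 were 7, beside 10.4% of all genes.

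The proteasome list moved in one direction on deposited values and less so on scaled ones. Of 33 subunits, 20 passed the test towards ITD00185 and 0 towards T73 as deposited, and 6 and 0 on scaled values. The median change was 1.67 as deposited, 0.33 on scaled values and 0.02 with the shared profile removed. The 6 called on scaled values were as many as the sign-change genes. RPN6, of the regulatory particle, read 0.61, 1.32 and 0.68 against 1.86, 2.20 and 1.81 at 48 h, and 2.06, 2.30 and 1.68 against 0.30, 0.67 and 0.46 at 96 h. No array overlapped, and the change was 2.63 ± 0.38 as deposited and 1.37 on scaled values (adjusted p = 0.0185). With the shared profile removed its difference at 48 h was 0.05 and no longer negative. RPN10, the ubiquitin receptor of the proteasome, changed by 3.31 ± 0.49, by 1.32 on scaled values, and by 0.87 with the profile removed, where it missed the threshold (adjusted p = 0.0975). RPN4, the transcription factor of the proteasome genes, changed by 3.45 ± 0.94 (adjusted p = 0.018) with a scaled adjusted p just under the threshold of 0.05.

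Among 29 genes of the ubiquitin system and Cdc48, 13 were called towards ITD00185 and 5 towards T73, and 7 were sign-change genes, all towards ITD00185. UBC4, an enzyme that transfers ubiquitin to short-lived and damaged proteins, changed by 5.80 ± 0.91, and UFD1, a cofactor of Cdc48, by 4.31 ± 0.54. UFD1 was among the 87 genes with opposite calls at the 2 times, with -2.51 at 48 h and 1.80 at 96 h. The difference of UBC4 at 96 h, 1.68, did not pass its test (adjusted p = 0.0803).

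Lists of nuclear functions held sign-change genes mainly towards ITD00185, which was also the direction of 567 of the 767 members. The shares of all genes in the 2 directions are 10.4% and 3.65%. Of 41 nuclear pore and transport genes 10 turned towards ITD00185 and 1 towards T73, of 35 histone and chromatin genes 7 and 1, of 42 genes of RNA polymerases and general factors 7 and 1, and of 43 splicing genes 6 and 0. RPC82, a subunit of the polymerase that makes transfer RNA, read -0.14, 0.62 and 0.43 against 4.05, 3.00 and 1.71 at 48 h, and 2.66, 2.38 and 2.46 against -0.56, -0.33 and -0.52 at 96 h. Its strains did not overlap at either time, and its change of 5.58 ± 0.66 was 4.35 on scaled values. TFC7, of the factor that recruits the same polymerase, changed by 3.98 ± 0.45, the nucleoporin NSP1 by 6.12 ± 0.97 and SPT7, of a histone acetyltransferase complex, by 3.42 ± 0.55. RSC8, of a chromatin remodelling complex, changed by 8.25 ± 1.13 with 2 values in T73 at 48 h, 7.93 and 6.84. PRP5, an RNA helicase of the spliceosome, changed by 6.61 ± 1.32. RFC1, of the clamp loader of DNA replication, changed by 3.62 ± 0.49. It belongs to the cell cycle and DNA replication list, where 4 of 45 genes turned towards ITD00185 and 2 towards T73. The median change of the splicing list was 0.70 as deposited and 0.03 on scaled values, and that of the polymerase list 0.55 and -0.05, both near 0 on scaled values.

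The ribosome lists gave different counts. Of 75 ribosome biogenesis genes, 30 were called towards ITD00185 and 7 towards T73, with 14 and 2 sign-change genes, and the median change was 1.40 as deposited and 0.57 on scaled values. UTP9, of the small subunit processome, changed by 5.79 ± 0.67. It was 2.41 on scaled values and 0.89 with the profile removed (adjusted p = 0.157), where its difference at 48 h turned to 0.48. SSF1, a factor of large subunit maturation, was an exception that grew without changing sign, from -1.68 to -5.55 (change -3.87 ± 0.55). Of 53 mitochondrial ribosomal proteins, 28 were called towards ITD00185 and 0 towards T73 as deposited, and 7 and 0 on scaled values, with a median change of 1.83 and 0.62. The 5 sign-change genes among them are near the 10.4% of all genes. MRP51 changed by 5.56 ± 0.72 and RSM10 by 2.98 ± 0.33, which were 3.33 and 1.78 on scaled values. The difference of RSM10 at 96 h, 0.44, did not pass its test (adjusted p = 0.191), and its strains overlapped there.

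For the cytosolic ribosomal proteins the direction depended on scaling. As deposited, 28 of 126 were called towards ITD00185 and 17 towards T73, near the shares of all genes (24.4% and 13.6%). The median change was 0.01. On scaled values 0 were called towards ITD00185 and 59 towards T73, with a median of -1.39. The 11 sign-change genes of this list, which passed on both value sets, all turned towards T73. One of them was RPL30, of the large subunit, whose difference was 0.02 at 48 h and -1.72 at 96 h. Translation factors and transfer RNA synthetases had 7 sign-change genes towards ITD00185 and 4 towards T73 of 53 tested, among the former TIF3, an initiation factor, with a change of 3.18 ± 0.40. SRP54, of the particle that targets proteins to the endoplasmic reticulum, changed by 5.38 ± 0.48 and was among the 87.

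Single genes of mitochondria and of storage carbohydrates also turned. SOD2, the mitochondrial superoxide dismutase, read -0.24, -0.35 and -0.48 against 0.43, 0.86 and -0.95 at 48 h, where the strains overlapped, and 2.15, 2.32 and 2.01 against -1.35, -1.15 and -1.46 at 96 h, where they were far apart. Its difference of -0.47 at 48 h did not pass its test, and the change was 3.95 ± 0.54. The cytosolic enzyme SOD1 changed the other way, by -1.96 ± 0.34, with -1.26 on scaled values. Its difference was 1.60 at 48 h and -0.36 at 96 h, where the strains overlapped and it did not pass its test (adjusted p = 0.289). RCF1, which joins respiratory complexes, changed by 7.39 ± 1.36 and QCR7, of complex III, by 5.18 ± 0.98. At 96 h the difference passed its test for QCR7 but not for RCF1 (1.78, adjusted p = 0.196). The respiratory chain list had 7 of 34 genes called towards ITD00185 and 9 towards T73 as deposited, and 5 and 2 on scaled values. Of 21 trehalose and glycogen genes 4 were sign-change genes, all towards ITD00185, among them PIG2, a putative regulatory subunit of the phosphatase that acts on glycogen synthase, at 7.78 ± 1.41, and the glycogen primer GLG1 at 5.14 ± 1.05. The median change of that list was -0.54 as deposited and -0.32 on scaled values. The difference of GLG1 at 96 h, 1.40, did not pass its test (adjusted p = 0.188), and its strains overlapped there. ATG26, a sterol glucosyltransferase listed with autophagy, changed by 4.55 ± 0.66 as deposited and with the profile removed alike. PIL1, the core protein of the plasma membrane domains called eisosomes, changed by 6.69 ± 0.96.

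Nitrogen catabolite repression genes turned both ways. Of 38 tested, 8 were called in each direction, beside 24.4% of all genes towards ITD00185 and 13.6% towards T73. Sign-change genes were 6 towards ITD00185 and 2 towards T73, beside 10.4% and 3.65% of all genes. GAT1, an activator of genes for poor nitrogen sources, changed by 4.04 ± 0.64, DAL82, an activator of allantoin use, by 5.26 ± 0.80, and the proline oxidase PUT1, by 5.67 ± 0.97. GDH3, a glutamate dehydrogenase of ammonium assimilation with a close copy, went the other way by -2.81 ± 0.47. It was -1.37 on scaled values and -1.47 with the profile removed (adjusted p = 0.061). The list median of the strain difference was -1.34 at 48 h and -1.21 at 96 h, in favour of T73 at both times.

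**Figure D3:**
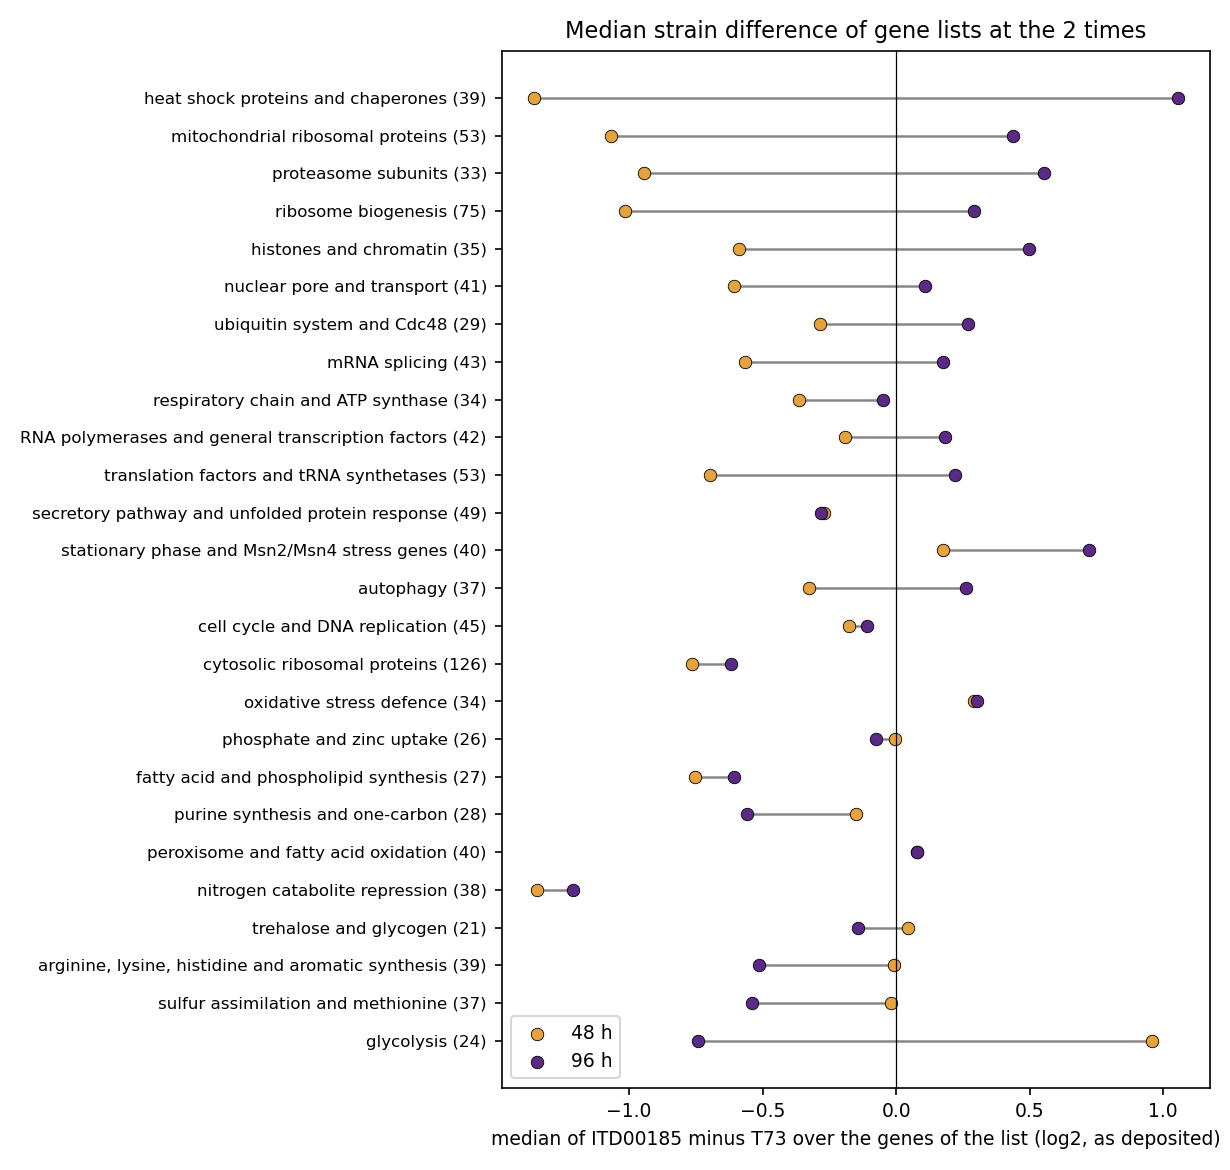
Median difference ITD00185 minus T73 (x axis, log2, as deposited) at 48 h and 96 h over the tested genes of each list (number in brackets), for lists with 4 or more sign-change genes; dots are medians and lines join the 2 times. Chaperones run from -1.36 to 1.05 and glycolysis from 0.96 to -0.74, and several lists in the middle keep one side.

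Turns towards T73 were found among biosynthetic and glycolytic genes, beside the 11 cytosolic ribosomal proteins above. Of 37 genes of sulfur assimilation and methionine, 13 were called towards T73 and 3 towards ITD00185 as deposited, and 15 and 0 on scaled values. All 8 sign-change genes went towards T73, and the median change was -0.83 as deposited and -1.47 scaled. MET17, which joins sulfide to the homoserine skeleton, read 2.40, -0.03 and 1.97 in ITD00185 and 0.13, -0.78 and 0.21 in T73 at 48 h, and -0.59, 0.18 and -0.44 against 1.70, 1.82 and 2.16 at 96 h. Replicate 2 of ITD00185 lay within the T73 range at 48 h, and the strains were apart at 96 h. The change was -3.78 ± 0.77 (adjusted p = 0.00604), -4.97 on scaled values and -4.52 without that array. MET5, a subunit of sulfite reductase, changed by -2.86 ± 0.65 and SAM3, the S-adenosylmethionine permease, by -2.67 ± 0.39, or -1.55 scaled.

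Of 13 branched-chain amino acid genes 8 were called towards T73 and 0 towards ITD00185, but 2 were sign-change genes. The median difference was 2.28 at 48 h and 0.25 at 96 h, so that for most of the list the lead of ITD00185 shrank without turning. ILV3, the dihydroxyacid dehydratase of the pathway, read 2.55, -0.30 and 0.79 against -1.57, -2.39 and -1.39 at 48 h, and -0.51, -0.43 and -0.38 against -0.16, -0.22 and 0.15 at 96 h. Its arrays were apart at both times, yet the difference of -0.36 at 96 h did not pass its test (adjusted p = 0.667). LEU9, an isopropylmalate synthase with a close copy, changed by -2.39 ± 0.49, and its difference of -0.10 at 96 h did not pass its test (adjusted p = 0.852). LEU4, that copy, LEU2, the next enzyme but one of leucine synthesis, and BAP2, a permease of these amino acids, changed by -2.92 ± 0.56, -2.59 ± 0.39 and -3.22 ± 0.38 and kept a positive difference at 96 h, of 0.08, 0.62 and 0.66. Of 39 genes of arginine, lysine, histidine and aromatic amino acid synthesis, 12 were called towards T73 and 2 towards ITD00185, with 6 and 1 sign-change genes. TYR1, of tyrosine synthesis, changed by -3.06 ± 0.76, ARO4, at the entry of the aromatic pathway, by -2.40 ± 0.55, and HIS1, at the entry of histidine synthesis, by -2.04 ± 0.45. Their differences at 96 h, -0.79, -0.59 and -0.75, did not pass their tests (adjusted p = 0.302, 0.286 and 0.107).

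Glycolysis had 11 of 24 genes called towards T73 and 0 towards ITD00185 as deposited, and 10 and 1 on scaled values. Of these, 7 were sign-change genes, and the median difference went from 0.96 at 48 h to -0.74 at 96 h. The list median by array was 1.16, 0.09 and 0.71 against -0.56, -0.76 and 0.01 at 48 h, and 0.05, -0.73 and -0.27 against 0.19, 0.19 and 0.46 at 96 h, with no overlap at either time. TPI1, triose phosphate isomerase, read 1.31, 0.47 and 0.57 against 0.02, -0.23 and 0.71 at 48 h, and 0.12, -0.85 and -0.54 against 0.63, 0.69 and 0.95 at 96 h. One T73 array lay within the ITD00185 range at 48 h, and the change was -1.79 ± 0.49 (adjusted p = 0.018), or -2.40 scaled. PFK2, of phosphofructokinase, changed by -1.94 ± 0.56 (adjusted p = 0.0219) and missed the threshold in 4 of the 12 fits without 1 array, with its highest adjusted p, 0.0577, without T73 96 h replicate 3. ADH5, an alcohol dehydrogenase, changed by -2.05 ± 0.37 and was among the 9 genes with opposite calls. ADH2, which oxidises ethanol, changed by -2.18 ± 0.66, with an adjusted p of 0.0261. It missed the threshold in 7 of the 12 fits without 1 array, with an adjusted p of up to 0.0653, without ITD00185 96 h replicate 2. Both belong to a family of close copies.

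Enzymes on the way back to glucose and of the citric acid cycle turned with glycolysis in a few cases. FBP1, the phosphatase specific to gluconeogenesis, read 0.81, -0.11 and 0.77 against -2.13, -2.08 and -1.65 at 48 h, and -0.77, -0.88 and -0.51 against -0.22, -0.87 and -0.21 at 96 h. The strains were far apart at 48 h and overlapped at 96 h, and the change was -2.73 ± 0.44. Gluconeogenesis and the glyoxylate cycle had 8 of 18 genes called towards T73 and 2 towards ITD00185 as deposited, and 6 and 3 on scaled values. The citric acid cycle had 9 of 23 genes called towards T73 and 4 towards ITD00185 as deposited, and 3 and 2 on scaled values. Its 3 sign-change genes all went towards T73. Among them were the fumarase FUM1, at -2.32 ± 0.45, and CIT3, a mitochondrial citrate synthase, at -2.07 ± 0.45. The difference of FUM1 at 96 h, -0.13, did not pass its test (adjusted p = 0.786).

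INO1, which makes inositol phosphate from glucose phosphate for phospholipids, had the largest change among the 200 genes towards T73 as deposited, though not on scaled values. It read -0.30, -1.93 and -0.52 against -2.40, -2.52 and -1.67 at 48 h, and -3.14, -3.66 and -2.89 against -0.32, -0.72 and -0.12 at 96 h. ITD00185 48 h replicate 2 lay within the T73 range, and the 96 h arrays were apart. The change was -4.12 ± 0.60 (adjusted p = 0.0018), -3.21 scaled and -4.63 without that array. CHO1, phosphatidylserine synthase, changed by -2.24 ± 0.41, and the fatty acid and phospholipid list had 7 of 27 genes called in each direction. HEM1, the first enzyme of heme synthesis, read 0.86, 1.19 and -0.55 against -2.03, -2.48 and -2.05 at 48 h, and -1.55, -1.86 and -1.70 against -0.83, -0.70 and -0.86 at 96 h. Its arrays were apart at both times, in opposite order, and the change was -3.60 ± 0.54. The difference of HEM1 at 96 h, -0.91, did not pass its test (adjusted p = 0.107). CMC2, of cytochrome oxidase assembly, changed by -3.59 ± 0.53, and the multidrug exporter SGE1 by -2.83 ± 0.50.

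URA2, the first enzyme of pyrimidine synthesis, turned towards T73 with little scatter. It read 0.50, 0.35 and 0.19 against -1.31, -1.27 and -0.97 at 48 h, and -1.86, -2.07 and -1.30 against -0.01, -0.01 and -0.08 at 96 h. The strains did not overlap, the difference passed at both times (1.53 and -1.71), and the change of -3.24 ± 0.35 (adjusted p = 0.00126) was -3.05 on scaled values. MET17 and ADH5, both described above, also had opposite calls towards T73. Further named genes with such calls were TUF1, the mitochondrial elongation factor, at -2.41 ± 0.43, and GRC3, a kinase of ribosomal RNA processing, at -2.13 ± 0.41. The last were ERP6, of the vesicle cargo family p24, at -1.71 ± 0.38, and NAS6, an assembly chaperone of the proteasome, at -1.28 ± 0.31.

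For genes towards ITD00185 the ratio moved more in T73, and for genes towards T73 the medians were closer to each other. Members were chosen on the change of the difference, which equals the ratio change in ITD00185 minus that in T73. The directions below thus follow in part from that choice, and the counts are a description without a share over all genes. Among the 567 genes towards ITD00185, the ratio of T73 to the mix was called falling between the times for 522. That of ITD00185 was called rising for 118, with both called in 97 and neither in 24. The median change of the ratio was -2.27 in T73 and 1.26 in ITD00185, beside -0.30 and -0.12 over all genes. At 48 h the median group mean was -0.04 in ITD00185 against 1.99 in T73, and at 96 h it was 1.27 against -0.32. Among the 200 genes towards T73 the ratio of T73 rose for 75 and that of ITD00185 fell for 41, with both called in 17 and neither in 101. Their median change of the ratio was 0.78 in T73 and -0.95 in ITD00185. The mixes at 48 h and 96 h are separate samples by their labels, so these are changes of a ratio and not of expression, and the mix falls out of the strain difference only if the arrays of a time shared one mix. The T73 arrays of 48 h also had the widest spread, and the ITD00185 mean at 48 h includes replicate 2.

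**Figure D4:**
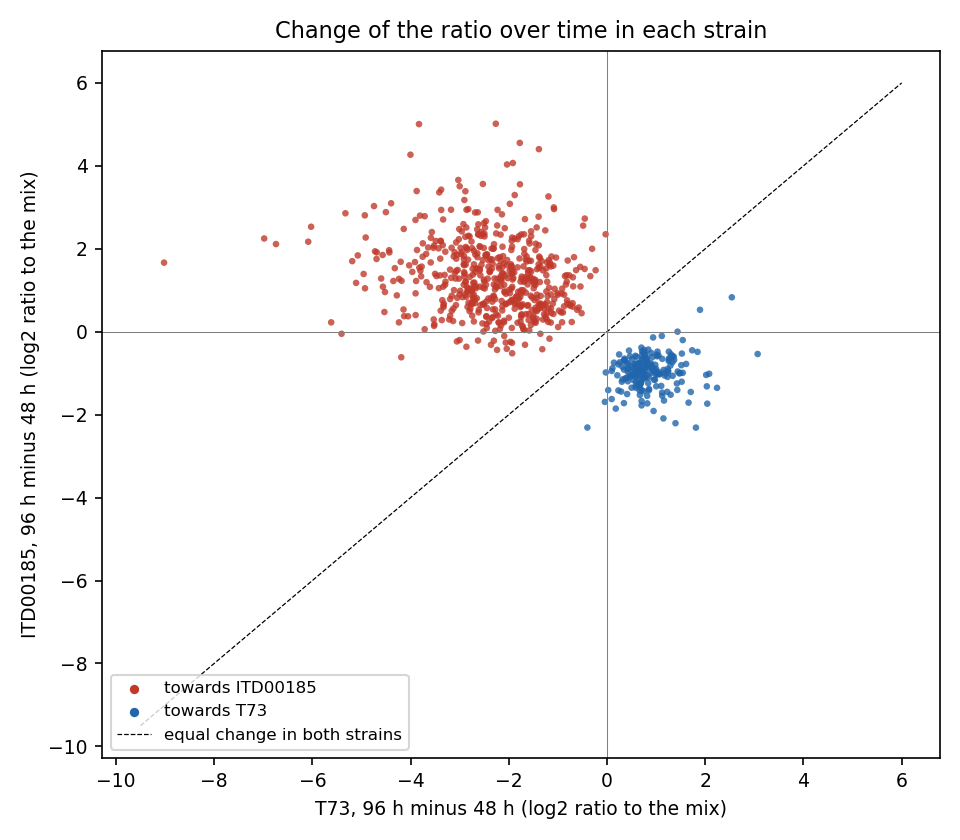
Change of the log2 ratio to the mix from 48 h to 96 h in T73 (x axis) and in ITD00185 (y axis), as deposited, for the 767 sign-change genes; the dashed line marks equal change. Red genes (towards ITD00185) spread mostly along the T73 axis, with medians of -2.27 in T73 and 1.26 in ITD00185, and blue genes (towards T73) lie close to the origin.

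Genes that turned together lay side by side on the chromosome in some cases. Of 4412 adjacent pairs of tested genes, both were sign-change genes towards ITD00185 in 60, both towards T73 in 10, and the directions were opposite in 34. Of the neighbours of genes towards ITD00185, 12.7% turned the same way, near the 10.4% of all genes tested. For genes towards T73 it was 6.1% against 3.65%. Whether neighbours turned together more often than other genes was not tested. SPT7 and UBC4 were one such pair, with changes of 3.42 and 5.80.

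Values near the boundary of the definition were small differences with clear changes. RPL30, LYS4 of lysine synthesis and the transcription factor FKH1 were the complete genes just inside, with differences of 0.02, 0.03 and 0.05 at 48 h and of -1.72, -1.59 and -1.52 at 96 h. Just outside were APE4, an aminopeptidase, and EMC3, of a membrane insertion complex, with -0.01 and -0.02 at 48 h, and HMG2, of sterol synthesis, with 0.03 at 96 h. The change missed the threshold in 6 of the 12 fits without 1 array for RPL30, in 7 for APE4 and, for EMC3, without T73 96 h replicate 3. A further 158 genes passed the test of the change on both value sets without being counted as sign-change genes. Of the 124 among them with one sign at both times as deposited, the difference was larger at 96 h for 64 and smaller for 60. ZNF1, a zinc cluster regulator with a difference of 7.87 at 48 h and 5.35 at 96 h, was one that shrank, by -2.52 ± 0.68 (adjusted p = 0.0191, and 0.0775 without ITD00185 48 h replicate 1). The asparaginase ASP3-1, one of several near-identical copies, had differences of -5.91 and -7.05, and its change of -1.14 (adjusted p = 0.0459) was -0.13 on scaled values and 0.36 with the shared profile removed.

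**Figure D5:**
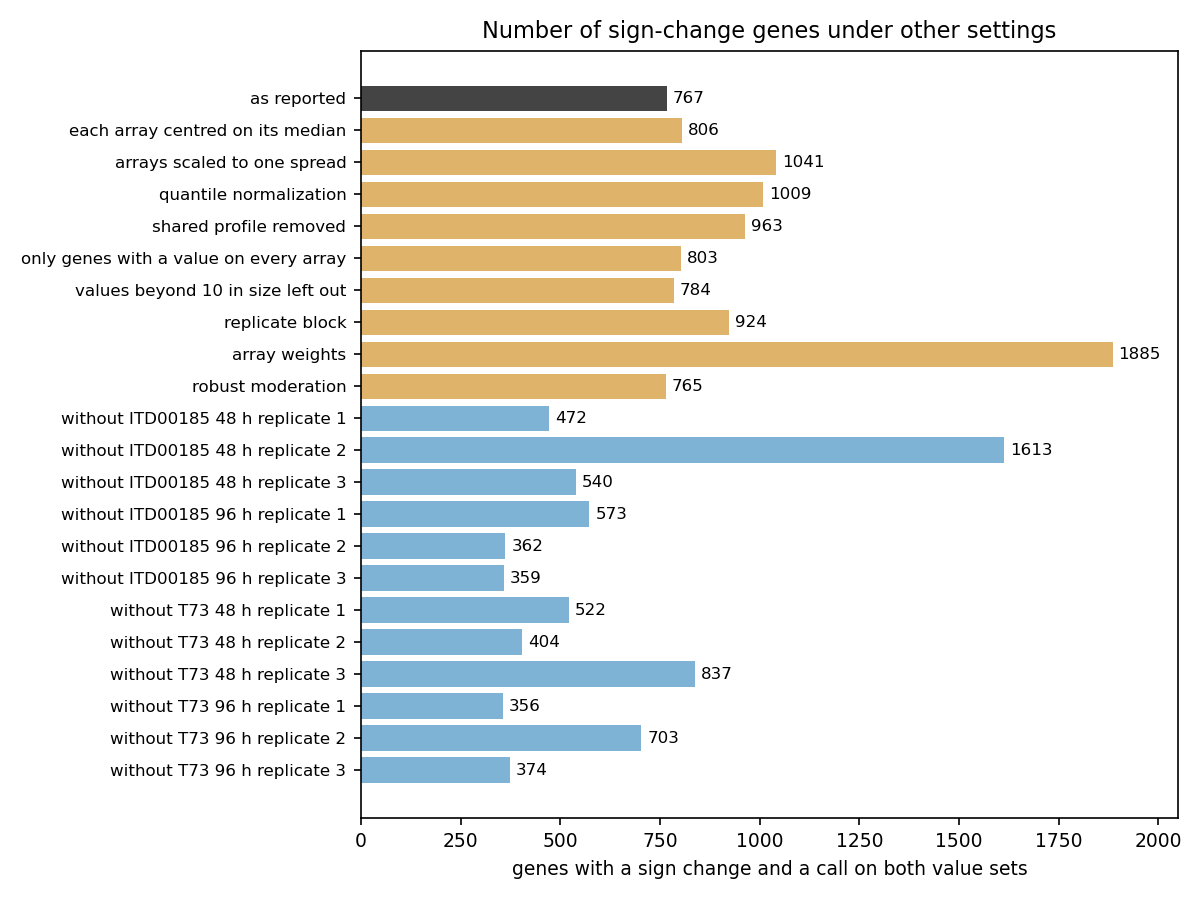
Number of sign-change genes (x axis) under the reported rule, under 9 other settings and without each of the 12 arrays. The count is 767 as reported, between 765 and 1885 under the other settings, and between 356 and 1613 without 1 array, highest without ITD00185 48 h replicate 2.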

How the data were processed

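Values were the log2 ratios of the deposited table, 1 per probe and array; the base and the direction, strain over mix, were read from the values, the channel order and the labels. Scanning, background correction, filtering, normalization and genome build are not given in the sources used here, and signal intensities were not used here. No array had its dyes exchanged, so a dye bias falls out of strain differences only if equal on all arrays. Of 6246 probes, 5753 matched by systematic name and 34 by synonym the RefSeq gene table of assembly R64 of S288C, and 459 kept their own names. Probes of a gene were averaged (31 genes), giving 6214 genes with 5657 to 6116 probe values per array, and 32 values beyond 10 in size were kept. Sequence differences between a strain and the probes can also alter a ratio.

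A model of 4 group means over 12 arrays was fitted with limma 3.58.1 in R 4.3.3 and tested on simulated data first (8 residual and 3.16 prior degrees of freedom). P-values are two-sided, moderated and adjusted by Benjamini and Hochberg over 5474 genes, threshold 0.05; the standard error shares 1 variance over all arrays. The number of arrays limits the precision. Scaling centred each array on its median and divided it by its median absolute deviation. The shared profile is the mean of the centred and scaled arrays. The replicate number was not used as a block. Other settings were centring, quantile normalization, profile removal, complete genes, extremes left out, replicate block, array weights, robust moderation and each array left out.

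The sign-change rule, the 37 gene lists and the genes were chosen with earlier results of these data known. Lists are described by counts and medians without a set test. Genes named are a subset of those a rule gave: the 12 largest stable changes with complete values in each direction, the 10 with the largest opposite calls, up to 4 called members with the smallest adjusted p per list with at least 2 called, 3 genes on each side of the sign boundary, and 14 fixed by name. Which of these to print was decided after their values were seen.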

Additional observations from a re-analysis of the deposited data

Results flagged for a closer look

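For 77 of the genes named the test of the change of the strain difference between the times was passed on both value sets, which is what marks them here. Their changes on scaled values, with positive sign towards ITD00185, follow by group, since the text gives mainly the deposited ones. Among regulators and single large turns they were 6.96 for SDA1, 6.29 for ROX1, 6.19 for MIG1, 5.50 for STD1, 6.53 for PIG2, 6.23 for IRC20, 6.45 for RPH1, 5.00 for PIL1 and 5.07 for RCF1. Chaperones gave 5.11 for ZUO1, 4.41 for MDJ1, 4.46 for SSA4, 4.60 for LHS1, 3.26 for HSP104 and 2.70 for HSP42.

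Protein turnover genes gave 3.64 for UBC4, 3.03 for UFD1, 1.37 for RPN6, 1.32 for RPN10 and 2.75 for RPN4. Nuclear genes gave 4.35 for RPC82, 3.43 for TFC7, 3.57 for NSP1, 5.05 for RSC8, 3.01 for SPT7, 4.49 for PRP5 and 2.09 for RFC1. Genes of ribosomes, translation and targeting gave 2.41 for UTP9, 3.33 for MRP51, 1.78 for RSM10, 2.15 for TIF3, 3.85 for SRP54 and -4.17 for SSF1. Nitrogen, storage and mitochondrial genes gave 5.04 for PUT1, 4.43 for DAL82, 3.17 for GAT1, -1.37 for GDH3, 3.45 for GLG1, 4.42 for ATG26, 3.80 for SOD2, -1.26 for SOD1 and 3.95 for QCR7.

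Among sulfur and amino acid genes the scaled changes were -4.97 for MET17, -2.99 for MET5, -1.55 for SAM3, -3.34 for ILV3, -2.39 for LEU9, -3.08 for LEU2, -2.58 for LEU4, -2.10 for BAP2, -2.82 for TYR1, -2.47 for ARO4, -2.11 for HIS1 and -1.60 for LYS4. Carbon genes gave -2.22 for ADH5, -2.31 for ADH2, -2.40 for TPI1, -2.02 for PFK2, -2.51 for FBP1, -2.41 for FUM1 and -2.28 for CIT3. The others were -3.21 for INO1, -3.04 for CHO1, -2.93 for HEM1, -3.55 for CMC2, -3.05 for URA2, -2.39 for TUF1, -2.56 for GRC3, -1.89 for ERP6, -1.72 for NAS6, -2.14 for SGE1, -3.95 for ZNF1, -2.51 for RPL30, -2.27 for FKH1, -1.69 for HMG2, -1.67 for APE4 and -2.11 for EMC3. Groups of 3 arrays are too small for the check of single outlying arrays.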

How the results depend on the processing

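The 2080 calls of the change became 1215 on scaled arrays, 1248 after quantile normalization and 3587 with array weights. Those towards ITD00185 (1333) became 734, 713 and, with the shared profile removed, 763, and those towards T73 (747) became 481 on scaled arrays, 1122 with each array centred and 1606 with array weights, so the split between directions moved with centring and scaling: it was 1117 to 1122 centred and 763 to 882 with the profile removed. Sign-change genes (767) became 1885 and opposite strain calls (87) became 668 with array weights, which gave ITD00185 48 h replicate 2 the lowest weight, 0.14. The deviations of same-numbered arrays from their group means correlated at r from -0.194 to 0.519, not above 0.1 in every pair, and not every array correlated best with its own number, so the numbers were not taken to pair the arrays. With the replicate number as a block the counts were 2249 calls (1395 and 854), 924 sign-change genes and 140 opposite strain calls. Without 1 array, calls ran from 1264 to 2903, those towards ITD00185 from 917 to 1636, those towards T73 from 347 to 1267, sign-change genes from 356 to 1613 and opposite strain calls from 19 to 397. The highest of each came without ITD00185 48 h replicate 2; sign-change genes fell to 356, 374, 359, 362, 404 and 472 without T73 96 h replicates 1 and 3, ITD00185 96 h replicates 3 and 2, T73 48 h replicate 2 and ITD00185 48 h replicate 1. Fits without an array have fewer samples. Under 9 other settings the named genes' changes kept direction and side of the threshold in 722 cases and lost the call in 8, and without 1 array in 955 and 35. Directions of called values turned for the difference of RPN6 at 48 h (0.05), that of UTP9 (0.48) and the change of ASP3-1 (0.36) with the shared profile removed; the cause was not tested. Of the list medians, 8 of 37 turned sign on scaled arrays. The planned search for motifs in promoters was not run, since no promoter sequences were used here.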

Other observations

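Of the lists not described above, secretory pathway and unfolded protein response had 5 sign-change genes towards ITD00185 and 1 towards T73 of 49, cell cycle and DNA replication 4 and 2 of 45, peroxisome and fatty acid oxidation 4 and 2 of 40, and autophagy 4 and 1 of 37, beside 10.4% and 3.65% of all genes. Iron uptake had 8 of 24 genes called towards T73 and 1 towards ITD00185 as deposited, and 3 and 1 on scaled values, with a median change of -0.84 as deposited and 1 sign-change gene in each direction. The list of purine synthesis and one-carbon genes also holds the pyrimidine genes URA2 and URA3. Its median change was -0.36 as deposited and -1.34 on scaled values. It had 2 sign-change genes each way, with URA2 among those towards T73. The list of sucrose, maltose and alpha-glucoside use had a median difference of 2.40 at 48 h and 1.16 at 96 h and 0 sign-change genes of 11. Cell wall mannoproteins and glucan enzymes had 8 of 43 genes called towards T73 and 3 towards ITD00185, and 1 sign-change gene.

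Adjacent pairs of sign-change genes included 2 regulators. MIG1 (8.27) neighboured VIR1 (6.34), and RPN4 (3.45) neighboured OSH2 (3.68). VIR1 and OSH2 were named after their values were seen.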
